A study of Rattus norvegicus with 12 samples.

Results

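Transcripts of the insulin-like growth factor (IGF) ligands, their receptors and the receptor substrates were examined in the rat corpus luteum (CL) through 7 genes chosen by symbol: Igf1, Igf2, Igf1r, Igf2r, Insr, Irs1 and Irs2. Of these, 6 were measured, on 7 probe sets, among 14506 genes that the array annotation names with 1 symbol. Irs2, a docking protein of the insulin and IGF1 receptors, had no probe set under its symbol, gene identifier or RefSeq accession and was not analysed here. The CL of Wistar rats were compared in 4 groups of 3 rats, with the RNA of 1 animal on each of 12 Affymetrix Rat Gene 1.0 ST arrays: untreated rats on day 12 of pregnancy (D12), and rats on day 16 that had been given vehicle (VEH), the aromatase inhibitor anastrozole (AI, 1 mg/kg body weight by mouth) or the same dose of AI with 17β-estradiol (AI+E2, 10 µg of E2 per day under the skin) daily for 4 days from day 12. All 12 animals were pregnant, so the D12 rats differ from the VEH rats both in day and in the handling and vehicle. The sources used here do not give the age of the rats.

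The CL is the gland that forms from the ovulated follicle and secretes progesterone, and in the second part of rat pregnancy it also makes E2 from androgen through aromatase. IGF1 and IGF2 are secreted peptides that act on neighbouring cells through the IGF1 receptor, a tyrosine kinase that phosphorylates IRS proteins and so switches on PI3K-Akt and Ras-ERK signalling. The insulin receptor is its closest relative and also binds IGF2. The IGF2 receptor is a different kind of protein: it carries mannose 6-phosphate tagged enzymes to the lysosome and takes IGF2 out of circulation, and it has no kinase.

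Values are log2 RMA signals, so a difference of 1 is a doubling. Groups are compared only within a gene, since signals of different probe sets are not comparable. Level serves only as a coarse sign of whether a signal lies near the array medians or far above them. A gene is said to have risen or fallen where its adjusted p, from limma fitted over all 14506 genes, was under 0.05, and n = 3 rats in each group throughout. As a coarse check of the tissue, the luteal markers Star (cholesterol import), Cyp11a1 (side-chain cleavage) and Lhcgr (the LH receptor) had group means between 12.4 and 12.9. Those of Prlr (the prolactin receptor) and Fdx1 (the electron donor of side-chain cleavage) were lower, between 10.06 and 11.30. The mean of the 6 luteal markers measured ranged from 11.90 to 12.00 in D12, 11.79 to 11.80 in VEH, 12.05 to 12.10 in AI and 12.12 to 12.15 in AI+E2, so that the groups did not overlap. Of these markers 4 rose and 1 fell in AI against VEH, where 5.91% of all genes rose and 11.0% fell. Fdx1 was 1.18 higher (adjusted p = 1.66e-08), the largest difference of the 6, and Prlr was 0.31 lower (adjusted p = 0.00357). In AI+E2 against AI only Prlr passed, 0.59 higher (adjusted p = 1.66e-05), where 12.8% of all genes passed. In AI+E2 against VEH 3 rose, where 6.11% of all genes rose. The order of the means thus leans on Fdx1 and Prlr and is not read as luteal content. The array medians lay between 6.51 and 6.56, and the arrays of a group correlated with r between 0.9919 and 0.9974. An exact permutation test of 3 against 3 cannot give a p under 0.1 and was not used. These are whole glands, in which fewer cells of a type and less RNA per cell cannot be told apart.

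In AI against VEH, 4 of the 6 measured genes passed the test, where 16.9% of all genes did. Igf1, Igf1r and Insr rose (5.91% of all genes rose) and Igf2r fell (11.0% of all genes fell), while Igf2 and Irs1 did not pass. The number fell to 2 without VEH replicate 1 and without AI replicate 2, and in both fits Igf1r and Igf2r were the genes that passed. The comparison of AI+E2 with AI passed 2 where 12.8% of all genes passed: Igf2r rose (8.65% of all genes) and Insr fell (4.13%). Igf1 and Igf1r rose in AI+E2 against VEH, where 13.0% of all genes passed, 6.11% upward and 6.90% downward. Igf1r fell in VEH against D12, where 10.1% of all genes passed, 6.91% upward and 3.23% downward. The comparisons of AI with VEH and of AI+E2 with AI share the AI arrays, and those with VEH share the VEH arrays, so their values stand side by side and are not independent of each other.

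**Figure D1:**
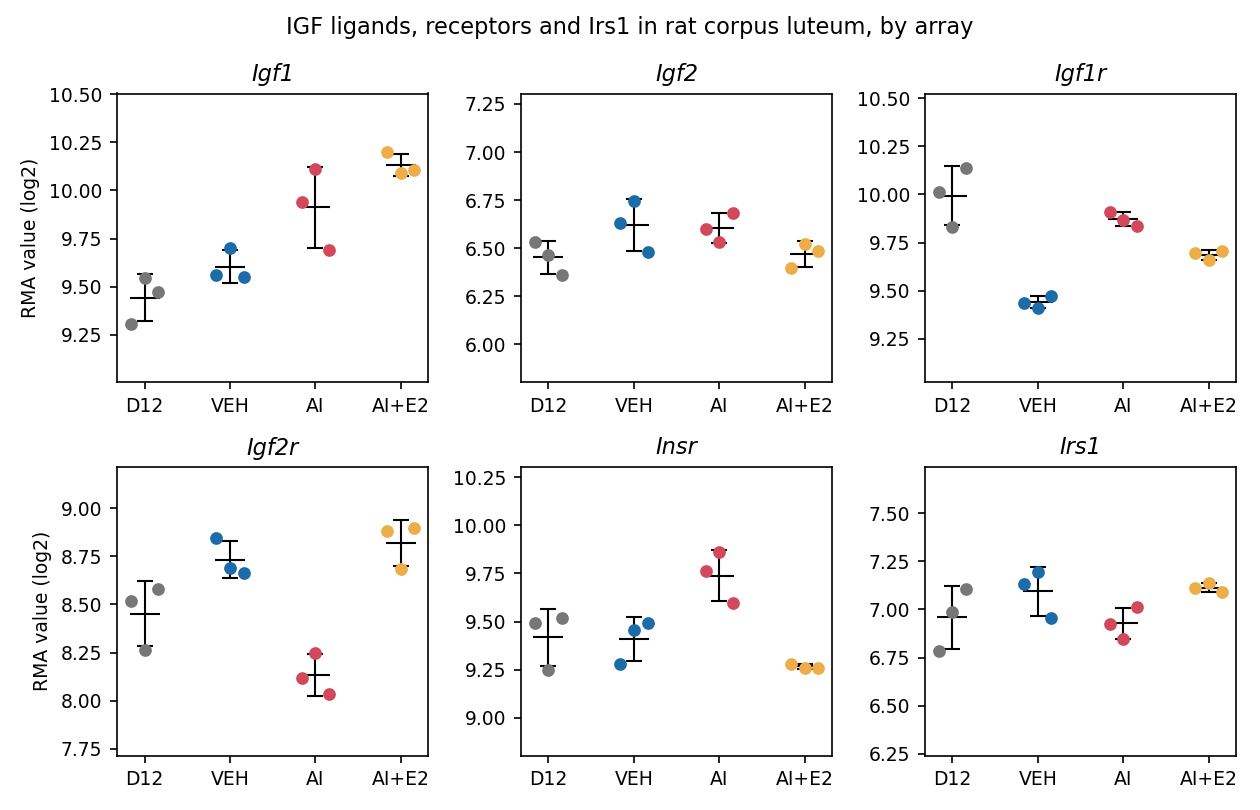
RMA signal (log2) of the 6 measured genes on each array by group, with the mean and SD of 3 rats; each panel spans the same 1.5 log2 units around its own centre. The 3 AI arrays lie below the other 9 for Igf2r and above them for Insr, and the 3 VEH arrays lie below the other 9 for Igf1r.

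**Figure D2:**
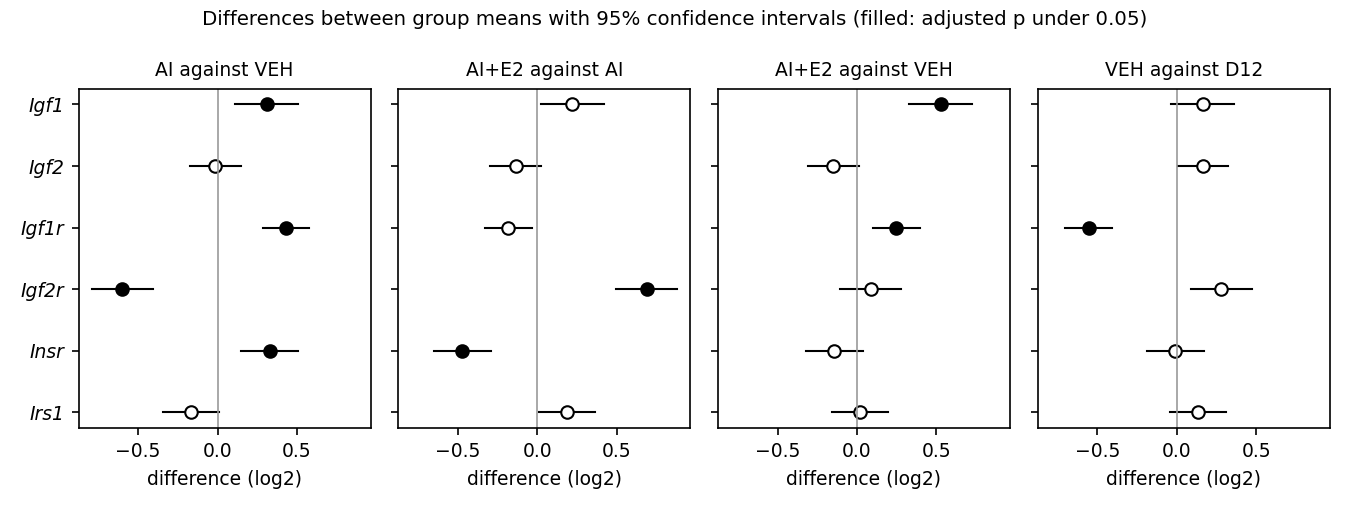
Differences between group means (log2) of the 6 genes in each of 4 comparisons, with 95% confidence intervals from limma; filled points have an adjusted p under 0.05. Igf2r lies at -0.60 in the first comparison and at 0.69 in the second, and both intervals exclude 0.

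Igf1, the growth factor whose liver form is driven by growth hormone, was lowest on day 12 and highest in AI+E2. Its signals were 9.31, 9.54 and 9.47 in D12, 9.56, 9.70 and 9.55 in VEH, 9.94, 10.11 and 9.69 in AI, and 10.20, 10.09 and 10.11 in AI+E2. The 3 AI+E2 arrays lay above all 6 arrays of D12 and VEH, and 1 AI array (9.69) lay just below the highest VEH array (9.70). Igf1 rose by 0.31 in AI against VEH (SE 0.093, 95% interval 0.11 to 0.51, adjusted p = 0.0329), which is 1.24-fold, and by 0.53 in AI+E2 against VEH (95% interval 0.33 to 0.73, adjusted p = 0.00117), which is 1.44-fold. The difference of 0.22 in AI+E2 against AI did not pass (95% interval 0.021 to 0.42, adjusted p = 0.156), nor did that of 0.16 in VEH against D12 (adjusted p = 0.325). The rise in AI against VEH did not hold without VEH replicate 1 (0.29, adjusted p = 0.105), VEH replicate 3 (0.28, adjusted p = 0.0983), AI replicate 1 (0.30, adjusted p = 0.103) or AI replicate 2 (0.21, adjusted p = 0.140). Without AI replicate 2, the difference in AI+E2 against AI was 0.32 and passed (adjusted p = 0.0325). The rise in AI+E2 against VEH held whichever array was left out, with an adjusted p between 0.000251 and 0.00924.

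The gene whose signal followed Igf1 most closely over the 12 arrays was Cd68, a lysosomal protein of macrophages, with a Pearson r of 0.954, followed by Dusp16, a phosphatase of stress kinases, and Tmem256, both at 0.940. Within groups, that is after each group's mean was taken off, r with Cd68 was 0.649. Genes named by their r, here and for the other members, were picked on these same 12 arrays, so their own differences are a description. Of 12 macrophage markers measured, 4 rose and 8 did not pass in AI against VEH, where 5.91% of all genes rose. The count of markers was 2 without AI replicate 3. Those that rose included Cd68 (0.32, adjusted p = 0.00872) and Adgre1, a surface receptor of macrophages (0.35, adjusted p = 0.0119). Against VEH, 5 rose and 7 did not pass in AI+E2, where 6.11% of all genes rose. C1qa, a complement protein, was 0.73 higher (adjusted p = 0.000146). The count of markers was 3 without VEH replicate 2, AI+E2 replicate 1 or AI+E2 replicate 3. The mean signal of the 12 markers ranged from 7.63 to 7.69 in D12, 7.66 to 7.76 in VEH, 7.83 to 7.95 in AI and 7.94 to 7.99 in AI+E2, and every one of the markers has a signal, since array values have no zero. Igf1 correlated with that mean at r = 0.886 over the 12 arrays and at 0.122 within groups. Other marker lists ran with Igf1 too: r over the 12 arrays was 0.733 for luteal cells and 0.692 for fibroblasts and matrix. Within groups it was highest for endothelium (0.907, against -0.240 over the 12 arrays) and for smooth muscle and pericytes (0.807, against 0.146). Csf1r, the receptor of the macrophage growth factor, differed by 0.028 in AI against VEH (adjusted p = 0.871) and by -0.13 in AI+E2 against VEH (adjusted p = 0.419). The part of these cell types in the Igf1 values was not tested.

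Growth hormone and prolactin receptors signal through Jak2 and the Stat5 proteins, a route known to drive Igf1 in liver. All 6 genes of this list were measured. In AI against VEH, where 11.0% of all genes fell, 4 fell: Ghr, the growth hormone receptor, Prlr, the prolactin receptor, and the transcription factors Stat5a and Stat5b. Ghr had signals of 8.09, 8.12 and 8.04 in VEH, 6.88, 7.16 and 6.83 in AI, 8.26, 8.16 and 8.32 in AI+E2, and 7.20, 7.26 and 7.51 in D12. The AI arrays lay below all others and the D12 arrays below those of VEH and AI+E2. Ghr fell by 1.13 in AI against VEH (SE 0.092, adjusted p = 4.22e-07), while Stat5b fell by 0.45 (adjusted p = 0.00318). In AI+E2 against AI, where 8.65% of all genes rose, 3 rose: Ghr by 1.29 (adjusted p = 1.63e-07), Prlr by 0.59 (adjusted p = 1.66e-05) and Cish, a STAT5-induced inhibitor, by 0.41 (adjusted p = 0.0254). The median difference of the list was -0.30 for AI against VEH (0.013 over all genes) and 0.32 for AI+E2 against AI (-0.022 over all genes). In VEH against D12 Ghr rose by 0.77 (adjusted p = 6.43e-05) and Jak2 fell by 0.43 (adjusted p = 0.00637). Between AI+E2 and VEH 3 rose and 2 fell, where 6.11% of all genes rose and 6.90% fell. Prlr was 0.28 higher (adjusted p = 0.00902) and Stat5b 0.46 lower (adjusted p = 0.00374). The number of the list passing was 3 without VEH replicate 1 or VEH replicate 2 and 2 without AI+E2 replicate 3. Ghr itself was 0.16 above VEH in AI+E2 and did not pass (adjusted p = 0.330).

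**Figure D3:**
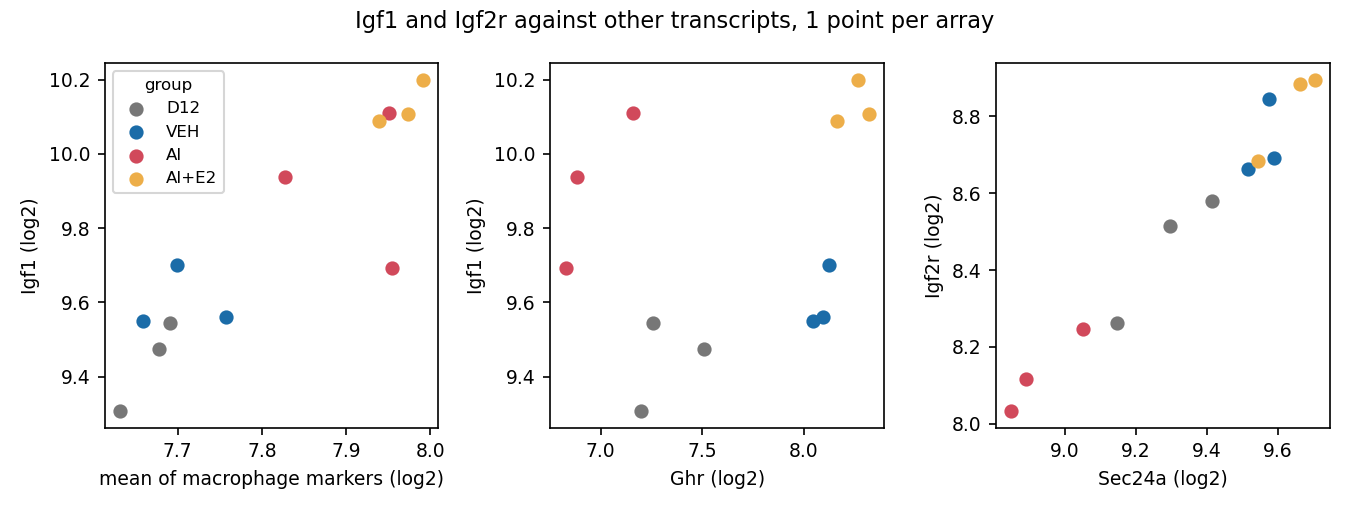
Signals (log2) on the 12 arrays, 1 point per array and coloured by group: Igf1 against the mean of 12 macrophage markers, Igf1 against Ghr, and Igf2r against Sec24a. The AI arrays have Ghr signals from 6.83 to 7.16 with Igf1 from 9.69 to 10.11, and the points of Igf2r and Sec24a lie close to a line over all 4 groups (r = 0.986).

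Igf2, the ligand best known from fetal growth, had signals of 6.53, 6.47 and 6.36 in D12, 6.63, 6.75 and 6.48 in VEH, 6.60, 6.53 and 6.68 in AI, and 6.40, 6.52 and 6.49 in AI+E2. Its group means, from 6.45 to 6.62, lay at the array medians of 6.51 to 6.56. A weak or undetected transcript can therefore not be told from an unchanged one. The arrays of all 4 groups overlapped those of at least 1 other group, and AI lay within the range of VEH. The difference in AI against VEH was -0.014 (95% interval -0.17 to 0.15, adjusted p = 0.933), and it changed sign without VEH replicate 2 (0.050) or AI replicate 2 (0.023). The other differences were -0.14 in AI+E2 against AI (95% interval -0.30 to 0.023), -0.15 in AI+E2 against VEH and 0.17 in VEH against D12 (95% interval 0.0072 to 0.33), with adjusted p from 0.196 to 0.289. H19, the imprinted RNA beside Igf2, differed by -0.032 in AI against VEH (adjusted p = 0.864). Ddx59, Il11ra1 and Card19 followed Igf2 most closely, with r from 0.840 to 0.860 over 12 arrays.

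Igf1r, the receptor kinase for both IGFs, was highest on day 12 and lowest in VEH on day 16. Its signals were 10.01, 9.83 and 10.14 in D12, 9.44, 9.41 and 9.47 in VEH, 9.91, 9.87 and 9.84 in AI, and 9.70, 9.66 and 9.71 in AI+E2. The day 16 groups did not overlap each other, with VEH lowest, AI+E2 between and AI highest, whereas the AI arrays lay within the range of the D12 arrays. Igf1r fell by 0.55 in VEH against D12 (SE 0.069, 95% interval -0.70 to -0.41, adjusted p = 8.94e-05), which is 1.47-fold and larger than the difference of 98.1% of all genes in that comparison. It rose by 0.43 in AI against VEH (95% interval 0.28 to 0.58, adjusted p = 0.000368), or 1.35-fold, and both calls held whichever array was left out. It also rose in AI+E2 against VEH, by 0.25 (95% interval 0.10 to 0.40, adjusted p = 0.0265), but this did not hold without VEH replicate 1 (0.25, adjusted p = 0.0672), VEH replicate 2 (0.23, adjusted p = 0.0833), AI+E2 replicate 1 (0.24, adjusted p = 0.0883), AI+E2 replicate 2 (0.26, adjusted p = 0.0519) or AI+E2 replicate 3 (0.24, adjusted p = 0.0832). The difference of -0.18 in AI+E2 against AI had an interval of -0.33 to -0.036 and did not pass (adjusted p = 0.105). It passed without D12 replicate 2 (adjusted p = 0.0419), with only the arrays compared (adjusted p = 0.0407), and at -0.25 after the arrays were quantile normalized again (adjusted p = 0.0157).

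The genes closest to Igf1r were Wasf1, an actin regulator, at r = 0.95, Cdc40, a splicing factor, at 0.944 and Tm7sf2, a sterol reductase of cholesterol synthesis, at 0.932, over 12 arrays. Tm7sf2 had the largest within-group r of the 3, 0.929, and its own differences were wider: it fell by 2.30 in VEH against D12 (adjusted p = 5.28e-08) and rose by 2.65 in AI against VEH (adjusted p = 4.22e-09). Markers of blood vessels stood opposite to Igf1r. Of 10 endothelial markers measured, 9 rose in VEH against D12, where 6.91% of all genes rose. In AI against VEH 8 fell, where 11.0% of all genes fell. Among the 8 were Eng, a TGFβ coreceptor (by 0.50, adjusted p = 8.91e-05), and Tek, the angiopoietin receptor (by 0.62, adjusted p = 0.000108). The mean signal of the 10 ranged from 8.68 to 8.87 in D12, 9.14 to 9.17 in VEH, 8.60 to 8.82 in AI and 8.72 to 8.78 in AI+E2. Its r with Igf1r was -0.760 over 12 arrays and -0.130 within groups. The mean of 9 smooth muscle and pericyte markers also ran against Igf1r, at -0.796 over 12 arrays and -0.116 within groups. For the luteal markers r was 0.482 over 12 arrays and 0.777 within groups. The part of these cell types in the Igf1r values was not tested.

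The promoter of Igf1r is shown because the gene passed in 3 comparisons; it is taken from RefSeq on the GRCr8 build, where Igf1r spans chr1:130959787-131248664. The 250 bases before the start site listed there (chr1:130959747-130959996, plus strand) hold 1 E-box, CACGTG, in capitals, which begins 31 bases before the start. The gene's first annotated base lies within this window, upstream of that start site.
Igf1r: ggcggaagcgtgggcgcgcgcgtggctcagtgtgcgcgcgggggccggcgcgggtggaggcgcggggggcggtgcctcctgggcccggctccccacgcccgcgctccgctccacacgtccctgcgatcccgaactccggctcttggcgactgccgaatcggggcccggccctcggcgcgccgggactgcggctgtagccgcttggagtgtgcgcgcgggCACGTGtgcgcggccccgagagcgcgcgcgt

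Igf2r, the receptor that clears IGF2 and sorts lysosomal enzymes, had the largest difference of the 6 genes in both comparisons with AI. Its signals were 8.52, 8.26 and 8.58 in D12, 8.84, 8.69 and 8.66 in VEH, 8.12, 8.25 and 8.03 in AI, and 8.88, 8.68 and 8.90 in AI+E2. The AI arrays lay below every other array, the highest of them (8.25) just under the lowest D12 array (8.26), and those of VEH and AI+E2 overlapped. Igf2r fell by 0.60 in AI against VEH (SE 0.090, 95% interval -0.79 to -0.41, adjusted p = 0.000202), 1.52-fold, and rose by 0.69 in AI+E2 against AI (95% interval 0.50 to 0.88, adjusted p = 7.84e-05), 1.61-fold. Both calls held without any 1 of the 12 arrays, at -0.66 to -0.54 and 0.64 to 0.76. AI+E2 differed from VEH by 0.088, with an interval from -0.10 to 0.28 (adjusted p = 0.652). In VEH against D12 the difference was 0.28 (95% interval 0.088 to 0.47) and did not pass (adjusted p = 0.0642), but without D12 replicate 3 it was 0.34 and passed (adjusted p = 0.0385).

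The 3 genes closest to Igf2r over 12 arrays were Sec24a, a coat protein of vesicles that leave the endoplasmic reticulum (r = 0.986, and 0.906 within groups), Smpd1, the lysosomal acid sphingomyelinase (r = 0.973), and Rnd2 (r = 0.969). Smpd1, picked for this likeness, fell by 0.61 in AI against VEH (adjusted p = 2.66e-05) and rose by 0.63 in AI+E2 against AI (adjusted p = 2.60e-05). A list of genes for the mannose 6-phosphate tag and the sorting of its carriers had 12 of 13 members measured. In AI against VEH 2 fell and 10 did not pass, a count near the 16.9% of all genes that passed. The 2 were Gnptg, a subunit of the enzyme that makes the tag, by 0.69 (adjusted p = 5.99e-07), and Sort1, sortilin, another carrier to the lysosome, by 0.38 (adjusted p = 0.000377). With AI+E2 against AI, where 8.65% of all genes rose and 4.13% fell, Gnptg rose by 0.49 (adjusted p = 3.15e-05) and Sort1 by 0.40 (adjusted p = 0.000301). M6pr, the small mannose 6-phosphate receptor that does not bind IGF2, fell there by 0.21 (adjusted p = 0.0288). In VEH against D12, where 6.91% of all genes rose, Gnptg and Sort1 rose, by 0.71 and 0.44. Both Gnptg (-0.20, adjusted p = 0.0305) and M6pr (-0.22, adjusted p = 0.0214) fell in AI+E2 against VEH, where 13.0% of all genes passed and 6.90% fell. Of these calls 1 was left without VEH replicate 1 or VEH replicate 2, and both were lost without AI+E2 replicate 1, 2 or 3. The other members of the list did not pass in any of the 4 comparisons, and the list's median differences lay between -0.028 and 0.067.

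The promoter of Igf2r is shown because it holds the same motif as that of Igf1r, on the same chromosome, in a gene with another pattern. Igf2r spans chr1:50526878-50615265 on GRCr8, and the 250 bases before its start (chr1:50526628-50526877, plus strand, RefSeq) hold 2 E-boxes, in capitals, that begin 125 and 85 bases before the start. Both have GT before them and AC after them.
Igf2r: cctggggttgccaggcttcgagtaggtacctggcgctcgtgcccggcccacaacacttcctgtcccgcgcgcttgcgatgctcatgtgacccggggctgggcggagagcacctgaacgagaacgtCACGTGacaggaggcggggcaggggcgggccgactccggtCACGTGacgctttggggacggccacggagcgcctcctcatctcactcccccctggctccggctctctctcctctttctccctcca

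Of 33469 rat promoter windows of this length, 5.59% hold CACGTG on either strand, 0.203% hold it with GT before and AC after, and 3 hold that longer form more than once. The E-box is the motif of the MiT and TFE, MYC and USF families of factors. The longer form was looked for after the Igf2r sequence had been read. Matches are letters in a window and say nothing of binding in the CL.

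Insr, the insulin receptor, was highest in AI. On its brighter probe set the signals were 9.49, 9.25 and 9.52 in D12, 9.28, 9.46 and 9.49 in VEH, 9.76, 9.86 and 9.60 in AI, and 9.28, 9.26 and 9.26 in AI+E2. The 3 AI arrays lay above all others, the AI+E2 arrays were the closest to each other (SD 0.011), and D12 and VEH overlapped. Insr rose by 0.33 in AI against VEH (SE 0.084, 95% interval 0.15 to 0.51, adjusted p = 0.0129), 1.26-fold, and fell by 0.47 in AI+E2 against AI (95% interval -0.65 to -0.29, adjusted p = 0.00128), 1.39-fold. The rise did not hold without VEH replicate 1 (0.26, adjusted p = 0.0694) or AI replicate 2 (0.27, adjusted p = 0.0604), whereas the fall held without any 1 array. A second Insr probe set gave 0.12 and -0.20 in the same comparisons, neither of which passed over all probe sets (adjusted p = 0.511 and 0.287), and the mean of both probe sets gave 0.23 in AI against VEH (adjusted p = 0.0756). AI+E2 differed from VEH by -0.14 (95% interval -0.32 to 0.036, adjusted p = 0.346). VEH differed from D12 by -0.0079 (95% interval -0.19 to 0.17, adjusted p = 0.969), with the sign turned without D12 replicate 1 (0.028), D12 replicate 3 (0.042) or VEH replicate 1 (0.057).

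Insr was followed most closely by Pfdn2, a subunit of the prefoldin chaperone (r = 0.953), Rab23, a small GTPase (r = 0.945), and Stk11, the kinase LKB1 that activates AMPK (r = 0.945). Rab23 rose by 0.64 in AI against VEH (adjusted p = 0.00136) and fell by 1.07 in AI+E2 against AI (adjusted p = 1.80e-05). The mean of 8 lymphocyte markers ran against Insr, with r = -0.827 over the 12 arrays and -0.957 within groups. It ranged from 6.59 to 6.76 in D12, 6.68 to 6.81 in VEH, 6.57 to 6.77 in AI and 6.81 to 6.82 in AI+E2. Nkg7 varied most of the 8 (SE 0.22, against 0.062 to 0.090 for the others), so this mean leans most on it. Several of the others had group means below the array medians of 6.51 to 6.56. Of these 8 markers, Cd4 and Nkg7 rose in AI+E2 against AI (adjusted p = 0.0439 and 0.0353), where 8.65% of all genes rose. Of these 2 calls, 1 was left without AI replicate 2, and both were lost without AI replicate 1, AI+E2 replicate 1 or AI+E2 replicate 3. Of 7 genes listed as markers of granulosa and theca cells and measured, 3 rose in AI against VEH and 4 did not pass. Of all genes, 5.91% rose there. Cyp17a1, which makes androgen, rose by 4.48 (adjusted p = 3.21e-13), Insl3 by 0.75 and Amh by 0.34, while Inhbb differed by -0.013. In AI+E2 against AI 3 fell and 4 did not pass, where 4.13% of all genes fell. Cyp17a1 fell by 3.41 (adjusted p = 1.75e-11), Gja1 by 0.78 and Insl3 by 0.75. Amh had its highest mean in AI+E2 (7.56, against 7.37 in AI), where Insr had its lowest. That difference in Amh was 0.20 and did not pass (adjusted p = 0.156). The mean of the 7 ranged from 8.43 to 8.75 in AI against 7.35 to 7.77 in VEH, 7.80 to 7.87 in AI+E2 and 7.55 to 7.96 in D12. Cyp17a1 had by far the largest difference of the 7, so this mean leans most on 1 gene. It is not read as a measure of follicle cells. The r of this mean with Insr was 0.673 over the 12 arrays and -0.073 within groups. The part of these cell types in the Insr values was not tested.

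The window before the start of Insr is shown because it holds a FOXO site, and FOXO factors are known to induce the insulin receptor when insulin signalling is low. Insr lies on the minus strand at chr12:5991135-6129275 (GRCr8), and the 250 bases (chr12:6128804-6129053, minus strand, RefSeq) hold TGTTTAC, in capitals, which begins 100 bases before the start and is found in 3.21% of rat promoters. The whole window lies within the annotated gene, whose span reaches further upstream.
Insr: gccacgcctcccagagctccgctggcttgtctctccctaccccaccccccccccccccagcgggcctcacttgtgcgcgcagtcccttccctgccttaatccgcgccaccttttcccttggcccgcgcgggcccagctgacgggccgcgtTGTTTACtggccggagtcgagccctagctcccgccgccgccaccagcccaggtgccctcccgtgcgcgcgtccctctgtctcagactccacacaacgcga

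Further motifs searched on both strands were the estrogen response element, which is GGTCA and TGACC with any 3 bases between (0.0239% of promoters), the AP-1 site TGANTCA (6.34%), the STAT5 site, TTC and GAA with any 3 bases between (7.67%) and the GC box GGGCGG (30.5%). The windows of Igf1, Igf2 (2 start sites), Igf1r, Igf2r, Insr and Irs1 did not hold the letters of the first 3 of these, which leaves other windows unread. The window of Igf1 held none of the 6 motifs.

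Irs1, the docking protein that carries the signal of both receptors to PI3K, had signals of 6.78, 6.99 and 7.11 in D12, 7.13, 7.20 and 6.95 in VEH, 6.92, 6.85 and 7.01 in AI, and 7.11, 7.14 and 7.09 in AI+E2. Group means of Irs1, from 6.93 to 7.11, were not far above the array medians of 6.51 to 6.56. A weak transcript can therefore not be told from an unchanged one. The AI arrays lay below those of AI+E2 and overlapped those of VEH. The difference in AI against VEH was -0.17 (95% interval -0.34 to 0.0098, adjusted p = 0.209) and that in AI+E2 against AI was 0.19 (95% interval 0.0097 to 0.36, adjusted p = 0.177). AI+E2 differed from VEH by 0.020, with an interval of -0.16 to 0.20 (adjusted p = 0.933), and by -0.051 without VEH replicate 3. VEH differed from D12 by 0.14 (adjusted p = 0.359). Echdc2, Ndufb7 and Ube2e2 were closest to it, with r from 0.886 to 0.918.

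The genes around the receptors were read by the step they act at. Among the proteins that hold IGFs in the tissue and the proteases that free them, 12 of 13 were measured. In AI against VEH 2 rose and 2 fell, where 5.91% of all genes rose and 11.0% fell. Igfbp5, which binds both IGFs, rose by 1.25 (adjusted p = 1.38e-07), and Pappa, the protease that cuts IGFBPs 4 and 5, rose by 0.87 (adjusted p = 7.23e-07). Htra1, a serine protease that also cuts IGFBPs, fell by 1.64 (adjusted p = 1.54e-08), and Stc1, a stanniocalcin that blocks Pappa, fell by 0.85 (adjusted p = 0.000745). All 4 also passed in AI+E2 against AI, where 12.8% of all genes passed. Their differences were -0.75 for Igfbp5, -1.46 for Pappa, 0.54 for Htra1 and 1.42 for Stc1. In AI+E2 against VEH 2 rose and 4 fell, where 6.11% of all genes rose and 6.90% fell. Htra1 and Pappa were lower by 1.10 and 0.59 (adjusted p = 2.32e-06 and 5.77e-05), as were Igfbp3 by 0.34 and Igfbp7 by 0.23, while Igfbp5 was higher by 0.50 and Stc1 by 0.57. In VEH against D12 4 rose and 1 fell, where 6.91% of all genes rose and 3.23% fell. Htra1 was 1.07 higher (adjusted p = 4.57e-06) and Igfbp7, a matrix protein of vessels, 0.33 higher (adjusted p = 0.00584). Of the list, 3 passed without D12 replicate 2, AI replicate 1 or AI+E2 replicate 1, and 2 without VEH replicate 1 or VEH replicate 2. The list's median stayed between -0.095 and 0.15 in the 4 comparisons.

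Among the other relatives of the ligands, 10 of 12 were measured. Insl3, a relaxin-like peptide, rose by 0.75 in AI against VEH (adjusted p = 4.90e-05) and fell by 0.75 in AI+E2 against AI (adjusted p = 6.69e-05). Rln1, the relaxin made by the CL of the pregnant rat, rose by 0.27 in VEH against D12 (adjusted p = 0.00891) and differed from VEH by -0.10 in AI (adjusted p = 0.310). Ins2, an insulin gene, had group means from 6.79 to 7.07, not far above the array medians of 6.51 to 6.56, so its expression is uncertain. Insl6 fell by 0.26 in AI against VEH (adjusted p = 0.0430) and rose by 0.29 in VEH against D12 (adjusted p = 0.0379), and the first call was lost without any 1 of 9 arrays, namely D12 replicate 3, VEH replicates 1 and 2, and each AI and AI+E2 array. The group means of Insl6, from 6.33 to 6.63, lay around those array medians, so its expression is uncertain too. The list had 2 calls in VEH against D12, where 10.1% of all genes passed. Of these calls 1 was lost without D12 replicates 1 or 3, VEH replicates 1 or 2, or AI+E2 replicates 1 or 3.

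Of 16 adaptors and docking proteins measured (17 listed), 1 rose and 4 fell in AI against VEH, where 5.91% of all genes rose and 11.0% fell. Dok4, a docking protein of the insulin receptor, fell by 0.50 (adjusted p = 0.000172) and Grb14, an adaptor that inhibits that receptor, by 0.45 (adjusted p = 0.000844). AI+E2 against AI gave 2 rises among the 16, a count near the 12.8% of all genes that passed. They were Grb14 by 1.40 (adjusted p = 1.95e-08) and Gab1, a docking protein, by 0.47 (adjusted p = 0.00565). Grb14 was also higher than in VEH, by 0.95 (adjusted p = 1.32e-06). Of 25 genes of PI3K-Akt-mTOR signalling (29 listed), 1 rose and 6 fell in AI against VEH, where 16.9% of all genes passed. Rheb, the GTPase that activates mTORC1, fell by 0.77 (adjusted p = 6.29e-07), and Phlpp1, an Akt phosphatase, by 0.41 (adjusted p = 0.000231). Here AI+E2 against AI gave 3 rises and 1 fall, a count near the 12.8% of all genes that passed. The lipid phosphatase Inppl1 was 0.65 higher (adjusted p = 4.39e-06) and Akt1 0.45 higher (adjusted p = 0.000134). Of the list, 2 passed without AI replicate 1. The list's median differences were 0.026 and 0.040 in these comparisons.

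Of 13 inhibitors of the receptors and IRS proteins, 4 passed in AI against VEH, 1 upward and 3 downward, where 16.9% of all genes passed. Without VEH replicate 2 or AI replicate 1, 2 passed. Ptpn1, the phosphatase PTP1B that acts on both receptors, fell by 0.51 (adjusted p = 2.06e-05), and Socs3, a feedback inhibitor, by 0.49 (adjusted p = 0.00253). Trib3, a pseudokinase that binds Akt, was the only 1 of the 13 to pass in AI+E2 against AI, where 12.8% of all genes passed. It fell by 0.34, from a mean of 6.46 in AI to 6.12 in AI+E2. Both lay below the array medians of 6.51 to 6.56, so its expression is uncertain. Of the list, 3 passed without AI replicate 3 and 2 without AI+E2 replicate 3. Of 7 Ras-ERK genes measured (11 listed), Nras fell by 0.53 in AI against VEH (adjusted p = 0.000536) and rose by 0.45 in AI+E2 against AI (adjusted p = 0.00286).

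In AI+E2 against AI, where 8.65% of all genes rose, 4 rose of 10 transcripts known to be induced by FOXO factors, which Akt keeps out of the nucleus. They were Cited2 by 1.22 (adjusted p = 1.28e-07), Pdk4 by 0.69 (adjusted p = 3.37e-05), Txnip by 0.64 (adjusted p = 2.03e-05) and Sesn3 by 0.31 (adjusted p = 0.00352). The same 4 rose in AI+E2 against VEH, which shares the AI+E2 arrays, and there Trib1 fell. Of all genes, 6.11% rose and 6.90% fell in that comparison. In AI against VEH, where 16.9% of all genes passed, Ccng2 rose by 0.48 (adjusted p = 0.000867) and Trib1 fell by 0.32 (adjusted p = 0.0124). Group means of Trib1, from 6.23 to 6.61, lay below or just above the array medians of 6.51 to 6.56. Those of Pdk4 lay below them outside AI+E2 (6.17 to 6.30). Their expression in these groups is uncertain. The list's median was 0.011 in AI+E2 against AI and 0.16 in AI+E2 against VEH, against -0.022 and -0.0064 over all genes. 

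**Figure D4:**
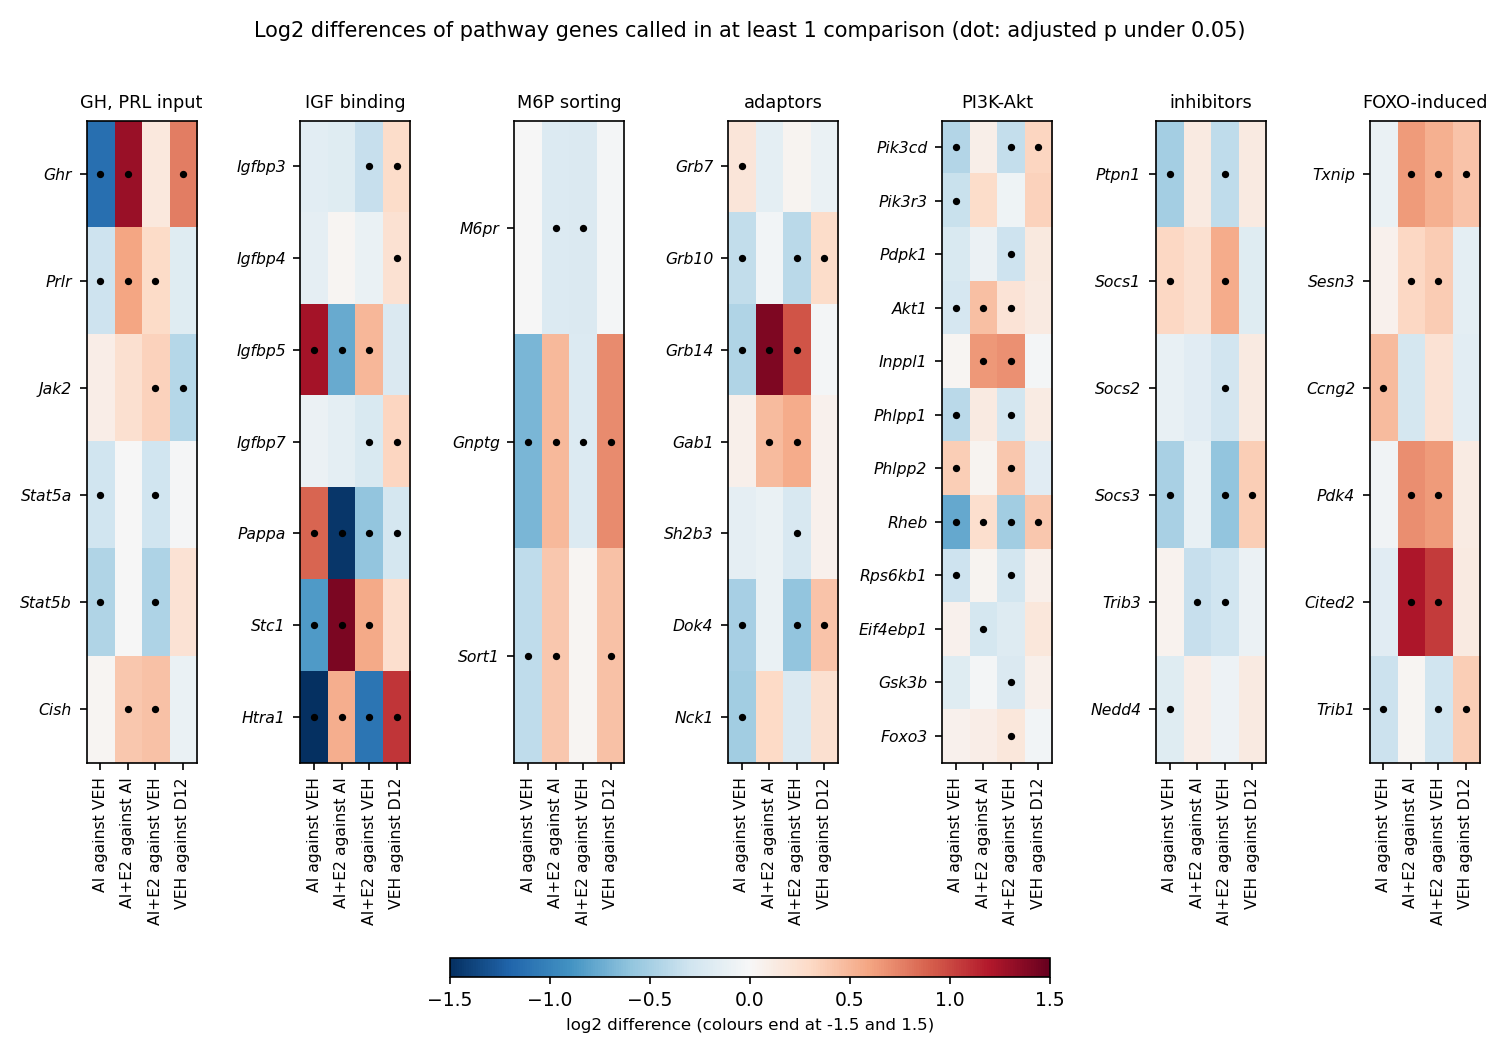
Log2 differences between group means of the listed pathway genes that passed in at least 1 comparison, by list (rows are genes, columns the 4 comparisons); a dot marks an adjusted p under 0.05, and colours end at -1.5 and 1.5. Ghr, Gnptg and Sort1 are blue in the first column and red in the second, and Igfbp5 and Pappa are the other way round.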

How the data were processed

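RNA of the CL of 12 rats, 1 animal per array, had been hybridised to Rat Gene 1.0 ST arrays. According to the submitters' processing notes and the study's methods, RMA was run in R 2.12.2, and the authors deposited its log2 values for 29214 probe sets. RMA subtracts background, equalises the arrays' distributions and summarises probes, which can compress large differences. Depth does not apply to arrays, and their number limits the precision. Of the probe sets, 15310 had 1 symbol in the platform annotation, 323 several and 13581 none, and those with 1 symbol were used. For each of 14506 genes the probe set of highest mean was taken; 527 genes had more than 1. All 12 arrays were fitted together in limma 3.58.1 (R 4.3.3; lmFit, eBayes) with 4 group means, 8 residual and 6.66 prior degrees of freedom, and Benjamini-Hochberg adjustment over all genes. The fit was checked on simulated data.

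The genes described and all lists were chosen with earlier results of these data known, and the tests therefore describe these arrays. From each list and comparison, up to 2 called genes of smallest p were named, with the 3 genes of highest r to each member; the other called genes named, and Csf1r, Inhbb and H19, were chosen after their values were seen. Cyp19a1, the target of AI, was also to be named but has no probe set with a single symbol and was not analysed here, nor were listed genes counted as not measured. Alternatives were all probe sets, averaging the probe sets of a gene, only the arrays compared, filters on dim genes, renewed quantile normalization, a replicate block, the methods' t-test and leaving out each array. Promoters were taken from RefSeq (GRCr8) for 6 of the 7 genes. Figures were drawn with matplotlib 3.10.9 in Python 3.11.15.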

Additional observations from a re-analysis of the deposited data

How the results depend on the processing

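Of the values of the 6 genes under the alternatives, 445 kept their direction and side of the threshold, 18 lost it, 7 gained it and 6 turned sign; of the counts of genes passing, 69 stayed within 1.5 times, 9 were smaller and 2 larger. The methods' t-test, which takes its spread from 3 against 3 arrays, passed 2 of the 6 genes in AI against VEH and 0 in VEH against D12, where 1 gene had an unadjusted p under 0.05 and limma passed 1. By it Igf1 (0.31, adjusted p = 0.280) and Insr (0.33, adjusted p = 0.179) no longer passed in AI against VEH, nor Insr in AI+E2 against AI (-0.47, adjusted p = 0.0578) or Igf1r in VEH against D12 (-0.55, adjusted p = 0.136), while Igf1r passed in AI+E2 against AI (-0.18, adjusted p = 0.0439). Igf1 in AI against VEH, at 0.31, also failed when all probe sets were tested (adjusted p = 0.0641) or only the arrays compared were fitted (adjusted p = 0.0601), and Insr there failed with the mean of its probe sets (0.23). Igf1r in AI+E2 against AI passed with only the arrays compared (-0.18, adjusted p = 0.0407) and after renewed quantile normalization (-0.25). Without the 50% of genes of lowest signal, Igf2r passed in VEH against D12 (0.28, adjusted p = 0.0461), which made 2 genes, and Igf2 was not among those tested.

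Leaving out 1 array gave 2 to 4 genes passing in AI against VEH, 2 to 3 in AI+E2 against AI, 1 to 2 in AI+E2 against VEH and 1 to 2 in VEH against D12. In AI against VEH, Igf1 ranged from 0.21 to 0.42, Igf2 from -0.084 to 0.050 (0.050 without VEH replicate 2 and 0.023 without AI replicate 2) and Insr from 0.26 to 0.40. In AI+E2 against AI, Igf1 ranged from 0.11 to 0.32 and Igf1r from -0.20 to -0.17. In AI+E2 against VEH, Igf1r ranged from 0.23 to 0.26 and Irs1 from -0.051 to 0.070. In VEH against D12, Igf2r ranged from 0.19 to 0.34 and Insr from -0.093 to 0.057, with 0.028, 0.042 and 0.057 above 0. Causes were not tested.

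The labels number the rats 1 to 3 in each group, but deviations of rats with the same number correlated at -0.486 to 0.114, so the numbers were not taken as pairs. With the replicate number as a block, the calls of the 6 genes were unchanged (4, 2, 2 and 1 genes passing in the order above).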
